A study of Mus musculus with 6 samples.

Results

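Adrenaline is made from tyrosine in 4 enzymatic steps. The transcripts of these 4 enzymes were compared between the mouse carotid body and the mouse adrenal medulla. So were those of 4 enzymes that make or recycle tetrahydrobiopterin, the cofactor of the first step. The 8 genes, Th, Ddc, Dbh, Pnmt, Gch1, Pts, Spr and Qdpr, were taken by name from the 26728 entries of the deposited expression table. Each name had 1 entry, and 8 of 8 passed the filter on low values in both tissues. The libraries came from untreated adult C57/BL6 mice (Charles River), 3 from the carotid body, the arterial oxygen sensor at the carotid bifurcation, and 3 from the adrenal medulla, the inner part of the adrenal gland, where chromaffin cells release catecholamines. A library was made from 1 pool of tissue of 10 mice, 18 organs for a carotid body pool (CB #1 to #3) and 10 for an adrenal medulla pool (AM #1 to #3), and n counts pools. Values are RPKM, read number scaled to mRNA length and library depth, and levels of different genes are compared on that per-length scale.

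Tyrosine hydroxylase (Th) turns tyrosine into L-DOPA and limits the rate of the pathway. Aromatic L-amino acid decarboxylase (Ddc) makes dopamine from L-DOPA, dopamine beta-hydroxylase (Dbh) makes noradrenaline inside the secretory granule, and phenylethanolamine N-methyltransferase (Pnmt) methylates noradrenaline to adrenaline. Tyrosine hydroxylase needs tetrahydrobiopterin. GTP cyclohydrolase 1 (Gch1), 6-pyruvoyltetrahydropterin synthase (Pts) and sepiapterin reductase (Spr) make it in that order, and quinoid dihydropteridine reductase (Qdpr) regenerates it after use. Chromaffin cells of the adrenal medulla are known for adrenaline, and glomus cells of the carotid body for dopamine.

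The region around the transcription start is shown for genes on both sides of the tissue split, as 250 bases before and 50 after the start in RefSeq's GRCm38.p6 annotation, a later build than the mm9 of the deposited values. The table of start regions matched 7 of the 8 symbols, and Pnmt had no entry. These 3 motifs were searched on both strands: the cyclic AMP response element (TGACGTCA), the EGR1 motif (GCGNGGGCG) and the hypoxia response core (ACGTG or GCGTG). Capitals mark every match, and no 2 matches overlapped.
Th, GRCm38.p6 chr7:142899946-142900245, minus strand: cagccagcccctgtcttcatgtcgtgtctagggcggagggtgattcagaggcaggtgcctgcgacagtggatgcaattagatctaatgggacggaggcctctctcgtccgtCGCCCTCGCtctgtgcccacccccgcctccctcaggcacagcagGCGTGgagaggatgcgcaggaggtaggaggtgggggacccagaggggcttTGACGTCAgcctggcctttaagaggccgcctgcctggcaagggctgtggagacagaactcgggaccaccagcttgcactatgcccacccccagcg
Ddc, upstream start, GRCm38.p6 chr11:11898095-11898394, minus strand: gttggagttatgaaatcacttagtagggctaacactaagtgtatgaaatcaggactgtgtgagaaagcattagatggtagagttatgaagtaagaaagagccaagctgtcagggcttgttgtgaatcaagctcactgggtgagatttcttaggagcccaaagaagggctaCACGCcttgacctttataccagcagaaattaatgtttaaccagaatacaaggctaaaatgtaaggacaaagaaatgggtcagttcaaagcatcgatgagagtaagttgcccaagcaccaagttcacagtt
Ddc, downstream start, GRCm38.p6 chr11:11890359-11890658, minus strand: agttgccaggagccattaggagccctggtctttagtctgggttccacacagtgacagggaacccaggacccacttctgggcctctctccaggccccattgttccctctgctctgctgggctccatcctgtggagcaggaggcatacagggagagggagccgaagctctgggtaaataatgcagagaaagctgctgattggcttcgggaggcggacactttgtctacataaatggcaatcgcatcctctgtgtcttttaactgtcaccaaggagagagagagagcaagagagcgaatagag
Dbh, GRCm38.p6 chr2:27165257-27165556, plus strand: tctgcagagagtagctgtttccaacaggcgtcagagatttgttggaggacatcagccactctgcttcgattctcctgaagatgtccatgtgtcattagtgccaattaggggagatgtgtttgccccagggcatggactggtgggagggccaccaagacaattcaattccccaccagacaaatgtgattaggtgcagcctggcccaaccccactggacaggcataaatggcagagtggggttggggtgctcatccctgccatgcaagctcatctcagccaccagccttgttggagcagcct
Gch1, GRCm38.p6 chr14:47189364-47189663, minus strand: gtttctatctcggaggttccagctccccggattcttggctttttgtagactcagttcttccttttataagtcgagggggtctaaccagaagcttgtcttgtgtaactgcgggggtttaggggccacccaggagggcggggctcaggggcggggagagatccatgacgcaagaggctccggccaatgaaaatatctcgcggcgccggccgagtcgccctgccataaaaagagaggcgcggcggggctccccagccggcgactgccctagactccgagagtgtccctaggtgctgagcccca

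The Th region held 3 matches. These were TGACGTCA with its first base 45 bases before the start, an EGR1 match on the opposite strand and GCGTG. A cyclic AMP response element was present in 1.79% of all 32851 start regions of that length, an EGR1 match in 5.55% and a hypoxia response core in 43.8%. The upstream start of Ddc held 1 hypoxia response core on the opposite strand. The downstream start of Ddc and the starts of Dbh and Gch1 held 0 matches to these letters in this window. The deposited entry of Ddc joins 2 RefSeq accessions, so its values do not separate the 2 starts. It also shares its span with the gene 1700042O10Rik, which reached at most 2.02 RPKM in a library, and strandedness of the libraries is not given in the sources used here.

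Libraries held 13266225 to 16445925 reads. The catecholamine cell marker chromogranin A (Chga) was present in each library, at 328 to 528 RPKM in the carotid body pools and 3427 to 5620 RPKM in those of the adrenal medulla. Of 10 catecholamine cell markers, limma called 4 higher in the adrenal medulla, which were Chga, Chgb, Slc18a1 and Gata3. Chgb averaged 669 RPKM in carotid body pools and 7144 RPKM in adrenal medulla pools. Called higher in the carotid body were 0 (3 at an unadjusted p below 0.05), and 6 were called in neither. The synaptic vesicle gene Syp, one of these 6, was at 35.7 to 54.5 RPKM in carotid body pools and 21.9 to 36.9 RPKM in adrenal medulla pools, and the vesicular monoamine transporter gene Slc18a2, another, at 23.9 to 34.5 RPKM in carotid body pools and 18.4 to 56.6 RPKM in adrenal medulla pools. The adrenal medulla pools also held adrenal cortex transcripts, with the cholesterol carrier gene Star at 2153 to 2950 RPKM and 12 cortex markers summing to 11401 to 14315 RPKM, against 105 to 203 RPKM in the carotid body pools. The carotid body pools were richer in glia, smooth muscle, fibroblast and mast cell markers, of which 9 of 9, 9 of 10, 10 of 10 and 8 of 8 tested were called higher there. Of 10 endothelial markers 7 were called higher in the carotid body, and of 8 macrophage markers 3. Of 12 sympathetic ganglion neuron markers, 3 were called higher in the carotid body, and 2 were called lower there. Of 9 tested fat markers limma called 0, and 0 had an unadjusted p below 0.05. Carotid body pool 2 stood apart with the brown fat gene Ucp1 at 221 RPKM, against at most 2.48 in the other 5 libraries. The part of these cells in the results below was not tested. In whole tissue, fewer cells of a type and less RNA per cell cannot be told apart.

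Of the 8 enzymes, 1 was called higher in the carotid body, where 14.2% of all 13357 tested genes were called higher, and 5 were called higher in the adrenal medulla, where 7.73% were. A gene was called at a limma adjusted p below 0.05 over all tested genes, and differences are carotid body minus adrenal medulla on the log2(RPKM + 1) scale. The median difference was -1.19 over the 8 enzymes and 0.02 over all tested genes. The 3 pools of one tissue lay wholly above those of the other for 6 of the 8 enzymes, against 37.0% of all tested genes. The count in the adrenal medulla was 4 without CB #2 and AM #3 together, and 3 without CB #1 or without AM #2. The count in the carotid body was 1 under each of these.

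**Figure D1:**
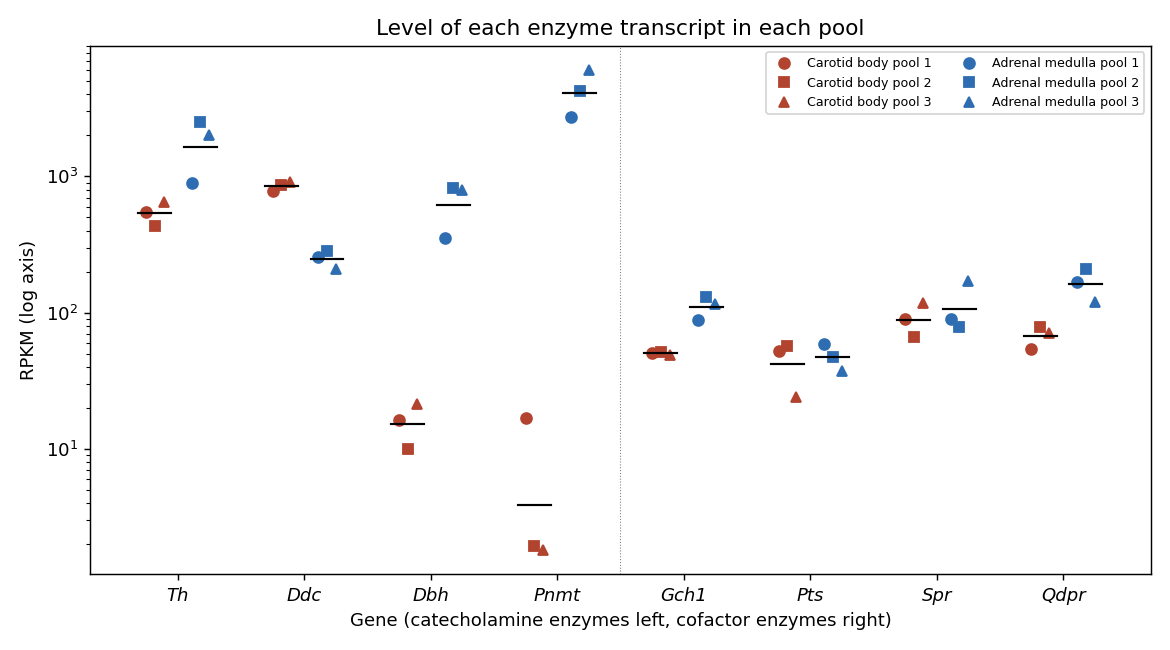
RPKM (log axis) of the 8 enzyme transcripts in each of the 3 carotid body pools (red) and the 3 adrenal medulla pools (blue), with the symbol giving the pool number and a bar at the geometric mean. Ddc is higher in the carotid body (777 to 917 RPKM, against 210 to 282 RPKM in the adrenal medulla), Th, Dbh, Pnmt, Gch1 and Qdpr are higher in the adrenal medulla, and the pools overlap for Pts and Spr.

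Th opened the pathway at a high level in both tissues. It stood at 551, 434 and 646 RPKM in carotid body pools 1, 2 and 3, against 887, 2489 and 2002 RPKM in adrenal medulla pools 1, 2 and 3. The groups did not overlap, and adrenal medulla pool 1 lay nearest to the carotid body. The log2 difference was -1.61 ± 0.41 (SE; 95% interval -2.54 to -0.68; limma adjusted p = 0.0218). Th was no longer called without CB #1 (adjusted p = 0.0693), CB #2 (0.0611) or AM #2 (0.0869), or when CB #2 and AM #3 were left out together (0.0878).

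Ddc was the enzyme called in the opposite direction. Its level was 777, 870 and 917 RPKM in the carotid body pools, against 256, 282 and 210 RPKM in the adrenal medulla pools. Pools of a tissue lay close together, with the highest 1.18 times the lowest in the carotid body and 1.34 times in the adrenal medulla. Its log2 difference was 1.78 ± 0.24 (SE; 95% interval 1.23 to 2.33; limma adjusted p = 9.15e-04), or 3.43-fold higher in the carotid body, and 4.58% of all tested genes differed by at least as much in that direction. Ddc ranked 125, 68 and 99 among 23511 entries by RPKM in the carotid body pools, and 347, 328 and 509 in the adrenal medulla pools.

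Dbh, the granule enzyme after dopamine, was at 16.3, 10.0 and 21.4 RPKM in the carotid body pools, against 351, 822 and 795 RPKM in the adrenal medulla pools. The groups lay far apart, with adrenal medulla pool 1 again the lowest of its tissue. The log2 difference was -5.24 ± 0.39 (SE; 95% interval -6.14 to -4.34; limma adjusted p = 4.76e-05). A total of 23 tested genes, 0.172%, Dbh included, had a difference as low or lower. The carotid body values rested on 541, 304 and 760 reads.

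Pnmt had the lowest log2 difference of all 13357 tested genes. It was at 16.8, 1.95 and 1.81 RPKM in the carotid body pools, from 216, 23 and 25 reads, against 2708, 4225 and 6042 RPKM in the adrenal medulla pools. Carotid body pool 1 lay far above the other carotid body pools, and the tissues did not overlap. The tissues differed by -9.60 ± 0.67 on the log2 scale (SE; 95% interval -11.14 to -8.06; limma adjusted p = 3.29e-05). It became -10.48 without CB #1, -8.90 when CB #2 and AM #3 were left out together, and -8.67 with a pseudocount of 5. Pnmt ranked 19, 4 and 5 by RPKM in the adrenal medulla pools, and 3906, 11705 and 11610 in the carotid body pools.

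**Figure D2:**
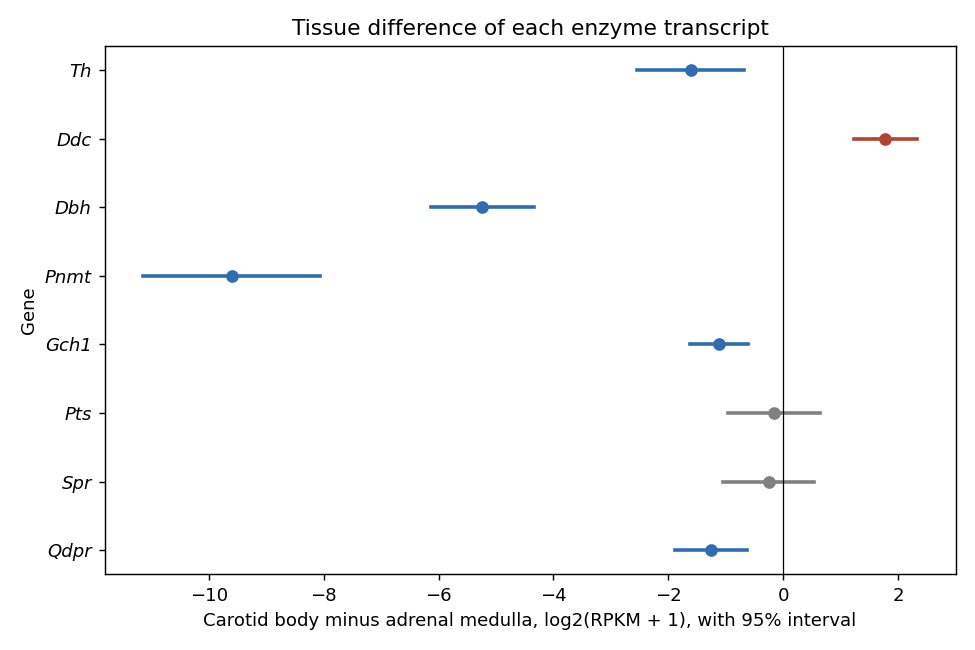
Difference of each enzyme transcript, carotid body minus adrenal medulla, on the log2(RPKM + 1) scale, with its 95% interval from limma (red, called higher in the carotid body; blue, called higher in the adrenal medulla; grey, not called). Ddc lies at 1.78, Pnmt at -9.60, and the intervals of Pts and Spr cross 0.

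Adrenal cortex transcripts in the carotid body pools were set beside these values. As a share of its mean level in the adrenal medulla, Pnmt reached 0.388%, 0.0451% and 0.0418% in carotid body pools 1, 2 and 3. The median over 12 cortex markers was 0.945%, 0.391% and 0.138% in the same pools, so Pnmt and the cortex markers were both highest in pool 1. Dbh reached 2.49%, 1.53% and 3.26%, above the cortex median in each pool and highest in pool 3. Th reached 30.7%, 24.2% and 36.0%. The part of adrenal RNA in the carotid body level of Pnmt was not tested.

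**Figure D3:**
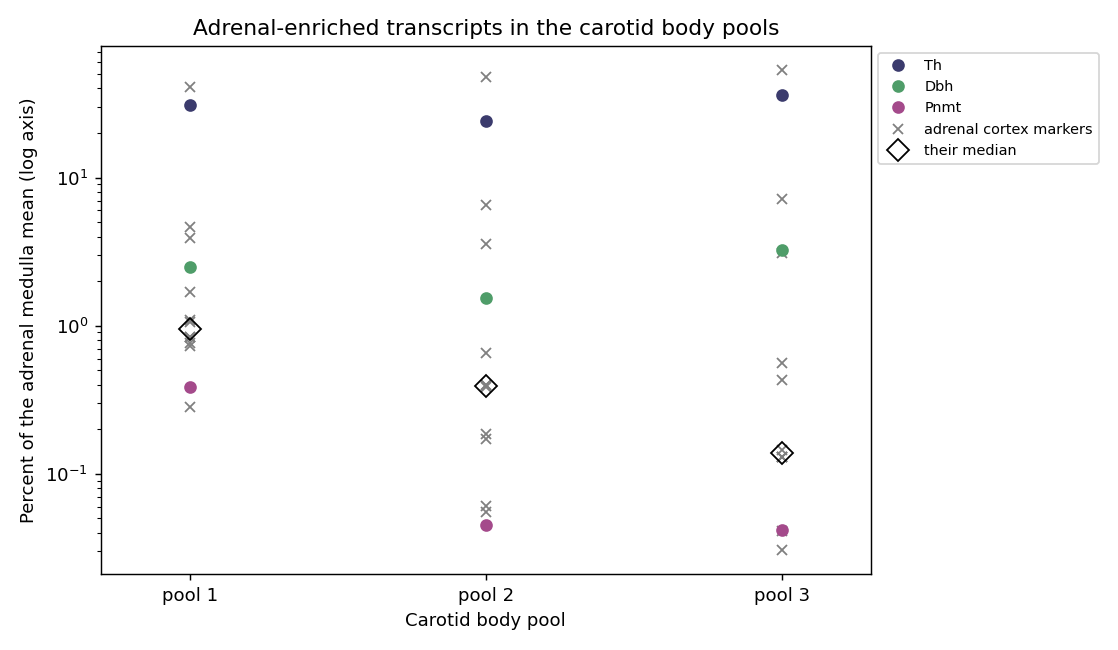
Level in each carotid body pool as a percent of the mean adrenal medulla level (log axis) for Th, Dbh, Pnmt and 12 adrenal cortex markers (crosses; values of 0 are not drawn), with the marker median as a diamond. Pnmt lies below the marker median in each pool (0.388% against 0.945% in pool 1), and Dbh lies above it.

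The makeup of the 4 catecholamine transcripts also set the tissues apart. Of their summed RPKM, Ddc made up 60.3% ± 5.02 in carotid body pools and 4.01% ± 1.92 in adrenal medulla pools (SD, n = 3 each). Th made up 38.1% ± 4.40 in carotid body pools and 25.0% ± 5.92 in adrenal medulla pools. Dbh made up 1.10% ± 0.305 in carotid body pools and 9.22% ± 1.14 in adrenal medulla pools. Pnmt made up 0.498% ± 0.636 in carotid body pools and 61.7% ± 6.78 in adrenal medulla pools, and without CB #1 the carotid body mean was 0.131%. The sum itself was 1421 ± 144 RPKM for carotid body pools and 7024 ± 2519 RPKM for adrenal medulla pools. The 4 cofactor enzymes summed to 254 ± 7.01 RPKM in carotid body pools and 437 ± 30.3 RPKM in adrenal medulla pools, with no one enzyme above 45.1% in any pool.

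**Figure D4:**
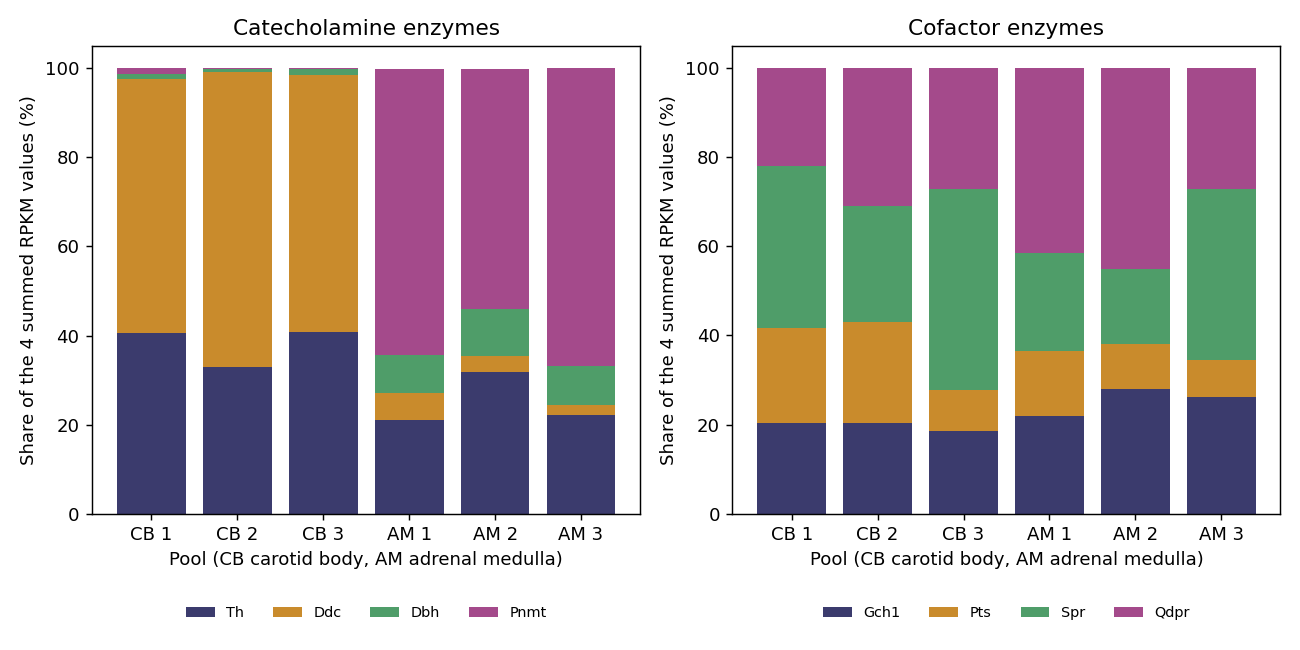
Share of each enzyme in the summed RPKM of the 4 catecholamine enzymes (left) and of the 4 cofactor enzymes (right), for carotid body (CB) pools 1 to 3 and adrenal medulla (AM) pools 1 to 3. Ddc and Th fill the carotid body columns, and Pnmt takes 54.0% to 66.8% of the adrenal medulla columns.

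Ratios between successive enzymes, formed within each pool, cancel the scaling of the library. The 7 ratios were compared by an exact two-sided permutation test over the 6 pools, in which 3 pools against 3 cannot give a p below 0.1. Of the 7 ratios, 3 did not overlap between the tissues. Each of these gave that smallest p, 0.1, or 0.233 adjusted over the 7 ratios, so this test cannot place them below 0.05 and their SEs give the precision. For Ddc per Th and Dbh per Ddc this outcome was fixed by the levels. All Ddc values were higher in the carotid body, and all Th and Dbh values were lower there. These ratios thus restate the levels and are no separate test. The share of non-overlapping ratios among other gene pairs was not computed.

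Ddc per Th was 1.41, 2.01 and 1.42 in the carotid body pools, against 0.289, 0.113 and 0.105 in the adrenal medulla pools. Decarboxylase transcripts outnumbered hydroxylase transcripts per length in each carotid body pool and in 0 of the 3 adrenal medulla pools, a log2 difference of 3.40 ± 0.50 (SE). Dbh per Ddc was 0.0210, 0.0115 and 0.0233 in the carotid body pools, against 1.37, 2.91 and 3.78 in the adrenal medulla pools. This step from dopamine to noradrenaline had the largest difference of the 7 ratios, at -7.12 ± 0.54 (SE) on the log2 scale.

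Pnmt per Dbh was 1.03, 0.194 and 0.0845 in the carotid body pools, against 7.71, 5.14 and 7.60 in the adrenal medulla pools. The log2 difference was -4.71 ± 1.08 (SE), and became -5.71 without CB #1 and -3.91 without CB #3. Among the carotid body pools the ratio differed more than 10-fold between pools 1 and 3, and pool 1 is also the pool with the highest cortex markers.

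Dbh was steadier relative to Th than alone, by the SD over 3 pools of a tissue. Dbh was 2.97%, 2.31% and 3.31% of Th in the carotid body pools, against 39.6%, 33.0% and 39.7% in the adrenal medulla pools. On the log2 scale the SD of this ratio was 0.27 among carotid body pools and 0.15 among adrenal medulla pools. The SD of Dbh alone was 0.55 among carotid body pools and 0.69 among adrenal medulla pools, and that of Th alone was 0.29 among carotid body pools and 0.78 among adrenal medulla pools. In the carotid body the SD of the ratio thus lay close to that of Th. For Ddc in the adrenal medulla the SD was 0.22 alone and 0.81 as a ratio to Th. For Spr the SD was 0.42 alone and 0.14 as a ratio to Th in the carotid body, the lowest ratio SD of the 7 other enzymes there, and 0.60 alone and 0.91 as a ratio in the adrenal medulla.

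**Figure D5:**
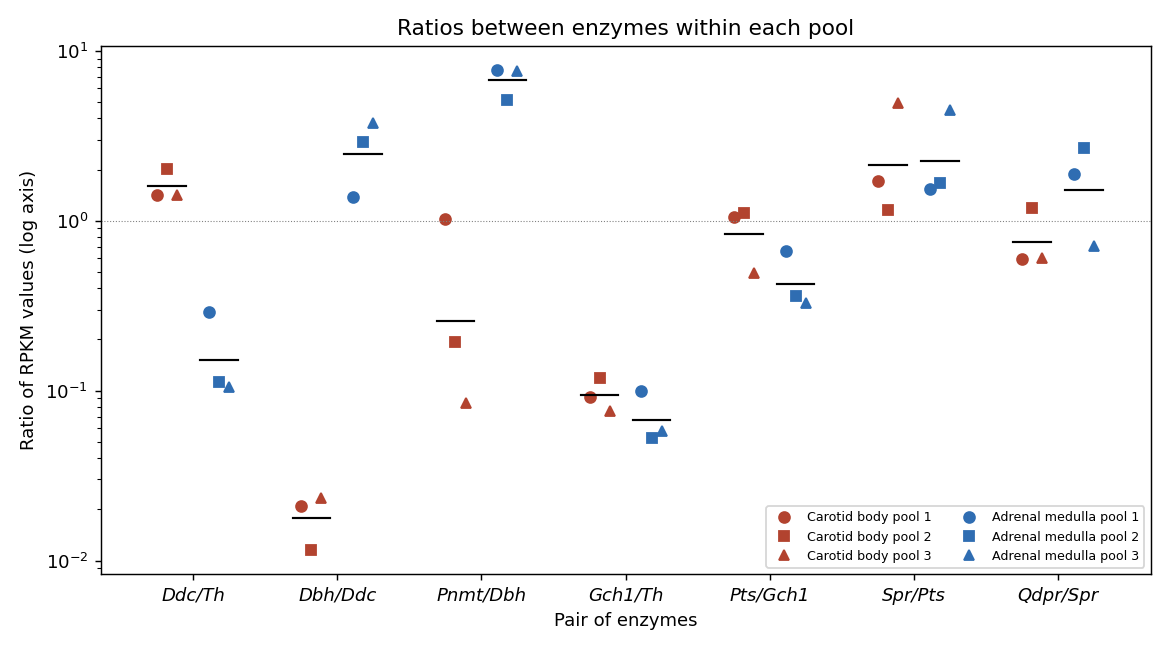
Ratio of RPKM values (log axis) for 7 pairs of enzymes in each carotid body pool (red) and adrenal medulla pool (blue), with the symbol giving the pool number and a bar at the geometric mean. Ddc/Th, Dbh/Ddc and Pnmt/Dbh do not overlap between tissues, and Spr/Pts is highest in pool 3 of both tissues (4.91 for carotid body, 4.50 for adrenal medulla).

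Of the 4 cofactor enzymes, 2 were called, each higher in the adrenal medulla, against 7.73% of all tested genes. The log2 differences of the 4 lay between -1.26 and -0.16. Gch1, the first and committed step of tetrahydrobiopterin synthesis, was at 50.3, 51.6 and 48.8 RPKM in the carotid body pools, against 88.5, 130 and 116 RPKM in the adrenal medulla pools. The carotid body values were nearly equal, with the highest 1.06 times the lowest, and the groups did not overlap. The log2 difference was -1.12 ± 0.22 (SE; 95% interval -1.63 to -0.61; limma adjusted p = 0.00711). Gch1 per Th was 0.0913, 0.119 and 0.0756 in the carotid body pools, against 0.0998, 0.0523 and 0.0577 in the adrenal medulla pools. These overlap, with a log2 difference of 0.48 ± 0.35 (SE; exact permutation p = 0.3, 0.350 adjusted over the 7 ratios).

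Pts, the second step, was at 52.7, 57.3 and 24.0 RPKM in the carotid body pools, against 58.6, 46.9 and 37.7 RPKM in the adrenal medulla pools. Spr, the third step, was at 90.5, 65.8 and 118 RPKM in the carotid body pools, against 89.4, 78.3 and 170 RPKM in the adrenal medulla pools. The tissues overlapped for both, and neither was called. The log2 difference of Pts was -0.16, with a 95% interval of -0.96 to 0.63 (limma adjusted p = 0.814), and that of Spr was -0.25, with an interval of -1.04 to 0.54 (adjusted p = 0.699).

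Within both tissues, pool 3 had the lowest Pts and the highest Spr. Spr per Pts was 1.72, 1.15 and 4.91 in the carotid body pools, against 1.53, 1.67 and 4.50 in the adrenal medulla pools. The tissue difference of this ratio was -0.08 ± 0.80 (SE; log2; exact permutation p = 1.00), far smaller than its spread between pools. Pts per Gch1 differed by 0.96 ± 0.49 (exact permutation p = 0.2, 0.280 adjusted) and Qdpr per Spr by -1.01 ± 0.66 (exact permutation p = 0.2, 0.280 adjusted), and both overlapped between the tissues.

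Qdpr, which recycles the oxidised cofactor, was at 54.2, 78.5 and 70.9 RPKM in the carotid body pools, against 168, 209 and 120 RPKM in the adrenal medulla pools. The groups did not overlap. On the log2 scale Qdpr differed by -1.26 ± 0.27 (SE; 95% interval -1.88 to -0.63; limma adjusted p = 0.0110). This call was lost without CB #1 (adjusted p = 0.0502) or AM #2 (0.0548).

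Other genes of the cofactor's metabolism were 6 in number. Of these, limma called 2 higher in the adrenal medulla, against 7.73% of all tested genes. It called 0 higher in the carotid body (0 also at an unadjusted p below 0.05), against 14.2% of all tested genes. The other 4 were called in neither, and the median difference of the 6 was -0.53. Gchfr, the regulatory protein that conveys feedback by tetrahydrobiopterin onto GTP cyclohydrolase 1, was at 6.18 ± 2.36 RPKM in carotid body pools and 19.3 ± 3.58 RPKM in adrenal medulla pools (SD, n = 3 each; log2 -1.54, limma adjusted p = 0.00498). The aldose reductase gene Akr1b3, whose product can also reduce pterin intermediates, was at 68.9 ± 6.78 RPKM in carotid body pools and 168 ± 33.8 RPKM in adrenal medulla pools (log2 -1.26, limma adjusted p = 0.00524). Pcbd1, the carbinolamine dehydratase that acts before Qdpr in recycling, was not called (log2 -0.42, limma adjusted p = 0.343).

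The other enzymes that use tetrahydrobiopterin were nearly all low. Of 7 listed, 3 reached the filter, and 3 of these 3 were called higher in the carotid body, against 14.2% of all tested genes. Tph1 and Agmo did not reach the filter in all 3 adrenal medulla pools, so they passed through their carotid body level, and this count is a description. Tph1, the tryptophan hydroxylase of serotonin synthesis outside the brain, was at 3.39, 5.20 and 2.65 RPKM in the carotid body pools and at most 0.0531 RPKM in the adrenal medulla pools (log2 2.17, limma adjusted p = 1.63e-04). Mast cells are also known for Tph1, and their markers summed to 179 to 241 RPKM in the carotid body pools, against 3.38 to 10.7 RPKM in the adrenal medulla pools. The mast cell share of Tph1 was not tested. The endothelial nitric oxide synthase gene Nos3 (log2 1.42, limma adjusted p = 0.00423) and Agmo, the alkylglycerol monooxygenase gene (log2 1.72, limma adjusted p = 0.00424), were the other two. Endothelial markers, 7 of 10 of them called higher in the carotid body, summed to 496 to 594 RPKM there and to 208 to 247 RPKM in the adrenal medulla.

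Genes that supply substrates and further cofactors were the third group. Of 12, limma called 6 higher in the adrenal medulla, against 7.73% of all tested genes. It called 0 higher in the carotid body (1 at an unadjusted p below 0.05), against 14.2% of all tested genes. The other 6 were called in neither, and the median difference of the 12 was -0.74. The count in the adrenal medulla became 4 to 7 with a pool left out. Slc31a1, the copper importer (copper is bound by Dbh), was at 12.8 ± 0.780 RPKM in carotid body pools and 73.3 ± 18.1 RPKM in adrenal medulla pools (log2 -2.40, limma adjusted p = 1.60e-04). Mat2a, which makes the methyl donor used by Pnmt, was at 92.5 ± 20.0 RPKM in carotid body pools and 306 ± 57.1 RPKM in adrenal medulla pools (log2 -1.72, limma adjusted p = 0.00169). Slc7a5, the light chain of a transporter that carries tyrosine and L-DOPA, was at 1.30 ± 0.322 RPKM in carotid body pools and 6.69 ± 0.382 RPKM in adrenal medulla pools (log2 -1.75, limma adjusted p = 3.44e-04), and its heavy chain Slc3a2 differed by -0.76.

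The vitamin C transporter gene Slc23a2 was at 3.78 ± 0.489 RPKM in carotid body pools and 8.91 ± 3.24 RPKM in adrenal medulla pools (limma adjusted p = 0.0346). Its call, and that of Slc3a2, was lost without each of CB #1, CB #2, CB #3, AM #1 and AM #2 in turn (adjusted p = 0.0719 to 0.120 for Slc23a2 and 0.0604 to 0.0972 for Slc3a2). Cyb561, the electron carrier of the granule membrane that keeps vitamin C reduced for Dbh, was at 416 ± 119 RPKM in carotid body pools and 627 ± 95.8 RPKM in adrenal medulla pools and was not called (limma adjusted p = 0.188). Cortex markers summed to 11401 to 14315 RPKM in the same adrenal medulla pools, and 11 of 11 tested were called higher there, against 7.73% of all tested genes. Some of them, such as Cyp11b2 and Nr5a1, passed the filter only through their adrenal medulla level, so this count is a description. The part of the adrenal cortex in the 6 calls of the supply genes was not tested.

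The genes nearest to each catecholamine enzyme in pattern were found by the root mean square difference of centred log2(RPKM + 1) profiles over the 6 pools, among 6714 other genes averaging at least 10 RPKM in 1 of the tissues. For Th these included LOC100504703 (0.21) and Arhgdig (0.25), where a value of 0 would be the same pattern on the log2 scale. For Ddc they were Arhgap31 (0.07), Ecscr (0.10) and Rcan2 (0.11). For Dbh they were Sbsn (0.30), Fdxr (0.42) and Prl8a2 (0.42), and for Pnmt they were Akr1cl (0.69), Hsd3b1 (0.73) and Cyp11a1 (0.80). Hsd3b1 and Cyp11a1 are steroid synthesis genes of the adrenal cortex. Like Pnmt, they were higher in carotid body pool 1 than in pools 2 and 3. Choosing genes by their pattern over the same 6 pools favours such a likeness, so it is a description only.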

How the data were processed

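RNA from 3 carotid body and 3 adrenal medulla pools was amplified from total RNA before library construction, per the labels' protocols, and reads were aligned with Bowtie 0.9.8 to mm9, per the submitters' processing notes; the counting program is not given in the sources used here. The authors deposited RPKM values for the 23511 entries with an mRNA length. Multiplying RPKM by length and dividing by the smallest such product of a library gave whole reads, within 0.01, for 106276 of 106276 values above 0, and thereby each library's depth, 13266225 to 16445925 reads. At 2 kb, 1 read is worth 0.0304 to 0.0377 RPKM; a precision from read numbers covers counting error only, since amplified reads are not independent molecules. The 3217 entries without a length were not used.

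Genes with at least 1 RPKM in at least 3 libraries (13357) were compared on log2(RPKM + 1) by limma (version 3.58.1; R version 4.3.3) with a variance trend and Benjamini-Hochberg adjustment. That scale understates the difference of low genes. Ratios were tested by exact permutation in scipy 1.17.1. The code of the limma step was checked on simulated reads in which all genes shared the same dispersion. That check does not measure the error rate in these data. Nothing says that pools came from separate groups of animals beyond their numbers, so p-values measure the spread between these pools. The members, lists, tests and the rule for the genes nearest in pattern were chosen with earlier results of these data known. Each member is named whatever its value; of the lists, genes were named after their values were seen, and some genes are not reported here. The labels number the pools of both tissues 1 to 3. Over 13357 genes, deviations from the tissue means correlated at 0.259, 0.128 and 0.473 between pools of the same number. Between pools of different numbers they correlated at -0.6225 to 0.2911. The highest of these, for CB #2 with AM #1, lay above the 0.259 and the 0.128. The numbers were treated as pairing the pools in an alternative fit only, and the labels do not say what the number marks. Alternatives were 2 other pseudocounts, no filter, median-ratio and quantile scaling, limma voom on the recovered reads, each library left out, 2 libraries left out together, and the replicate block.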

Additional observations from a re-analysis of the deposited data

How the results depend on the processing

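Of 224 alternative values over 16 level differences and counts, 211 kept their direction and their side of the threshold, or stayed within 1.5 times for a count. Of 70 for the 7 ratios, 66 kept their direction; their p cannot fall below 0.1 under any setting, so the threshold does not bear on them. Th lost its call when CB #1, CB #2 or AM #2 was left out, with log2 differences from -2.05 to -1.31 over the pools left out in turn, and without CB #2 and AM #3 together (-1.32, adjusted p = 0.0878). Qdpr lost its call without CB #1 or without AM #2, and ranged from -1.47 to -1.07 over the pools left out in turn. The members called higher in the adrenal medulla then numbered 3 to 5. Pts ranged from -0.39 to 0.22 and Spr from -0.47 to 0.086 over the same settings, so their direction is not settled, and Spr was at 0.30 without both pools. Spr per Pts turned likewise, from -0.68 to 0.42 with a pool left out and 0.86 without both. In the supply list, Slc23a1 was called higher in the carotid body without carotid body pool 2, or without both pools, which makes that count 0 to 1 with a pool left out and 1 without both. Ddc, Dbh, Pnmt and Gch1 kept their calls in every alternative run, and the cause of the changes was not tested. With the replicate block, Th was at -1.61 (adjusted p = 0.0216) and Qdpr at -1.26 (0.00819). The block changed no call of a member. In the lists it added Atp7a, the copper pump gene, higher in the adrenal medulla (adjusted p = 0.0292), and changed no other call. Atp7a was also called under median-ratio scaling (0.0324), quantile scaling (0.0266), without AM #3 (0.0153) and without both pools (0.0238), and Slc23a2 was not called with no filter (0.0579), nor Slc3a2 without both pools (0.0580). With ratios permuted within pairs, the smallest possible p is 0.25. Carotid body Pnmt rests on 23 and 25 reads in pools 2 and 3, which limits its level there.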
